A study of Mus musculus with 70 samples.

Results

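Neuropeptide Y and its receptors were followed across the mouse brain through 4 genes, Npy, Npy1r, Npy2r and Npy5r, which were picked by name out of the 34677 genes that carried a transcript level. All 4 were found in the table and all 4 had enough reads to be tested. The data were poly(A) RNA sequencing libraries, 70 in all, that fell into 24 groups. The adult samples, 57 libraries from 18 regions, came from chow-fed male C57BL/6NTac mice, labelled C57BL/6, at postnatal day 56 (P56). They covered 3 cortical areas, namely the anterior cingulate area (ACA), the frontal pole cortex (FRP) and the entorhinal area (ENT), together with the nucleus accumbens (ACB) and the ventral tegmental area (VTA). The hypothalamus was represented by the arcuate (ARH), paraventricular (PVH), dorsomedial (DMH) and ventromedial (VMH) nuclei and the lateral hypothalamic area (LHA). The hindbrain was represented by the parabrachial nucleus (PB), the nucleus of the solitary tract (NTS) and the dorsal-vagal complex (DVC), and the cerebellum by central lobule II (CENT2), culmen lobules IV-V (CUL4-5), the uvula (UVU), the flocculus (FL) and the cerebellar nuclei (CBN). Embryonic samples at stage E14.5, also C57BL/6NTac, were 1 library of forebrain (F), 3 of terminal and peduncular hypothalamus (THy/PHy), 2 of midbrain (M) and 3 of hindbrain (H). The remaining 4 libraries came from mouse embryonic stem cells (mESC), 2 from each of the C57BL/6 clones B6-1 and B6-2. No animal carried an engineered allele or received a drug, and every adult library was a pool of punches from several mice except 1 ACB library made from 1 mouse. Libraries of different regions came in part from the same mice, so the p-values below measure the spread between pools.

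Neuropeptide Y is a secreted peptide transmitter that is made by hunger-promoting neurons of the arcuate nucleus, which also make agouti-related peptide, and by many inhibitory interneurons of the cortex and striatum. Its receptors are inhibitory G protein-coupled receptors. The Y1 receptor (Npy1r) and the Y5 receptor (Npy5r) are mostly found on target neurons and promote feeding, whereas the Y2 receptor (Npy2r) often sits on the terminals of the neurons that release the peptide and restrains that release.

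In the GRCm38 mouse genome Npy (ENSMUSG00000029819.6) lies on chromosome 6 from 49822710 to 49829507 on the plus strand. Npy2r (ENSMUSG00000028004.12) lies on chromosome 3 from 82538383 to 82548084 on the minus strand. Npy1r (ENSMUSG00000036437.6) occupies chromosome 8 from 66697192 to 66706792 on the plus strand, and Npy5r (ENSMUSG00000044014.9) occupies 66679965 to 66688128 of the same chromosome on the minus strand. These receptor genes are therefore placed head to head, with 9063 bases between them, and no other annotated gene overlaps any of the members. Bases before the RefSeq start that lie outside every annotated transcript are shown for 3 members, and no link between them and the levels was tested. Sequences are from RefSeq on GRCm38.p6, written along the gene's own strand, with matches to searched motifs in capitals. For Npy5r the bases nearest the RefSeq start are not shown, since an annotated transcript covers them, and for Npy1r too few bases remained to show.
Npy, chr6:49822460-49822709: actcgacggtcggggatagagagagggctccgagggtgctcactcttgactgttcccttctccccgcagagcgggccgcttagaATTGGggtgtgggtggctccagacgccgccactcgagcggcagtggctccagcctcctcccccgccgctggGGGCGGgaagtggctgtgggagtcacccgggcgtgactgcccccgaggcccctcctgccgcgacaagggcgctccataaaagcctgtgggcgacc
Npy2r, chr3:82548086-82548335: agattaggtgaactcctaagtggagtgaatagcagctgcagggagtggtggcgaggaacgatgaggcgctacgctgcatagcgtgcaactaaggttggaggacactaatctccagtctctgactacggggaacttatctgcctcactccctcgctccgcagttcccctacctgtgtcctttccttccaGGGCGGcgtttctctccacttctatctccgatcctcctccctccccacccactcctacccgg
Npy5r, chr8:66688129-66688344: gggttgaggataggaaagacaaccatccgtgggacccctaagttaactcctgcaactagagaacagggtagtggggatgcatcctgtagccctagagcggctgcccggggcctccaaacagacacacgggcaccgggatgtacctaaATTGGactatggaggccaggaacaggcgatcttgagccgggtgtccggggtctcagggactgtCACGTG

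The motifs were searched on both strands of the 250 bases before each start. The CCAAT box, which reads ATTGG on the other strand, stood 166 bases before the start of Npy and 103 bases before that of Npy5r, and 33.8% of 32851 RefSeq promoters held one. A GC box (GGGCGG) stood 95 bases before the start of Npy and 62 bases before that of Npy2r, against 32.7% of all promoters. An E-box (CACGTG, which reads the same on both strands) stood 40 bases before the start of Npy5r and was held by 6.02% of all promoters. None of the 4 windows held a TATA box (TATAAA, in 12.4% of promoters), a core of the cAMP response element (TGACG, in 17.8% of them) or a STAT site (TTCNNNGAA, in 7.02% of them). The window of Npy1r held none of the searched motifs. GC content was 69.2% for the printed bases of Npy, 56.8% for Npy2r and 58.3% for Npy5r, beside a median of 52.4% over all promoters.

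Levels are given in TPM, a measure of relative transcript abundance that corrects for transcript length and library depth, so that the members can be set against each other. Totals of estimated counts ran from 9074581 to 22229582 per library. At this depth Npy had 25020 counts over all libraries, Npy1r 12684, Npy2r 8225 and Npy5r 3018. The labels were checked with marker genes: the defining markers of ARH, ACB, VTA, cortex, cerebellum, LHA and mESC had their highest group mean in those groups, whereas the DMH markers Ppp1r17 and Gpr50 averaged 10.1 and 9.37 TPM in DMH and peaked elsewhere. Of the PVH markers, Oxt peaked in PVH, but Avp averaged 645 TPM there beside 865 TPM in ARH, and Sim1 averaged 3.96 TPM there beside 4.17 TPM in DMH. The VMH libraries held Nr5a1 at 45.8 and 21.4 TPM, the highest of all groups, and also 3454 and 3595 TPM of Pmch, a marker of the neighbouring LHA. The library VTA replicate 1 drew 39.6% of its TPM from mitochondrial transcripts, beside a median of 7.49% over all libraries.

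Npy, the ligand, was most abundant in ARH, where its level was 479, 684 and 382 TPM in the 3 libraries. The cortex and ACB came next and formed a plateau of their own. Npy was 319, 295 and 273 TPM in ACA, 299.8, 304 and 213 TPM in FRP, 277, 259 and 344 TPM in ENT and 219.7, 268 and 262 TPM in ACB. The lowest ARH library lay above the highest cortical one, and the cortical and ACB groups overlapped each other. The remaining 42 adult libraries lay between 2.98 and 73.8 TPM, with a median of 25.7 TPM, and none reached the plateau. In bulk samples, fewer cells of a type and less RNA per cell cannot be told apart.

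Outside ARH the hypothalamus held little Npy, at 42.9 and 24.4 TPM in PVH, 27.8, 26.3, 26.6 and 29.6 TPM in DMH, 20.1 and 14.8 TPM in VMH and 36.3, 41.6 and 19.1 TPM in LHA. Both VMH libraries lay below all of PVH and DMH, and the LHA libraries overlapped those of the other 3 nuclei. In the hindbrain the DVC, at 32.4, 29.96 and 38.0 TPM, stood above the NTS, at 8.85, 18.1, 16.7 and 8.93 TPM, and the PB, at 12.7, 13.1 and 12.4 TPM. Within the cerebellum CUL4-5 had 66.6, 51.6, 48.7 and 73.8 TPM, all above the highest other cerebellar library at 33.0 TPM. CENT2, at 24.1, 32.5, 28.5 and 33.0 TPM, UVU, at 31.9, 23.7 and 25.3 TPM, and FL, at 26.2, 26.9, 28.7 and 16.1 TPM, overlapped each other. The lowest adult levels were in CBN, at 5.85, 10.96 and 7.55 TPM, and in VTA, at 6.64, 2.98 and 5.53 TPM.

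**Figure D1:**
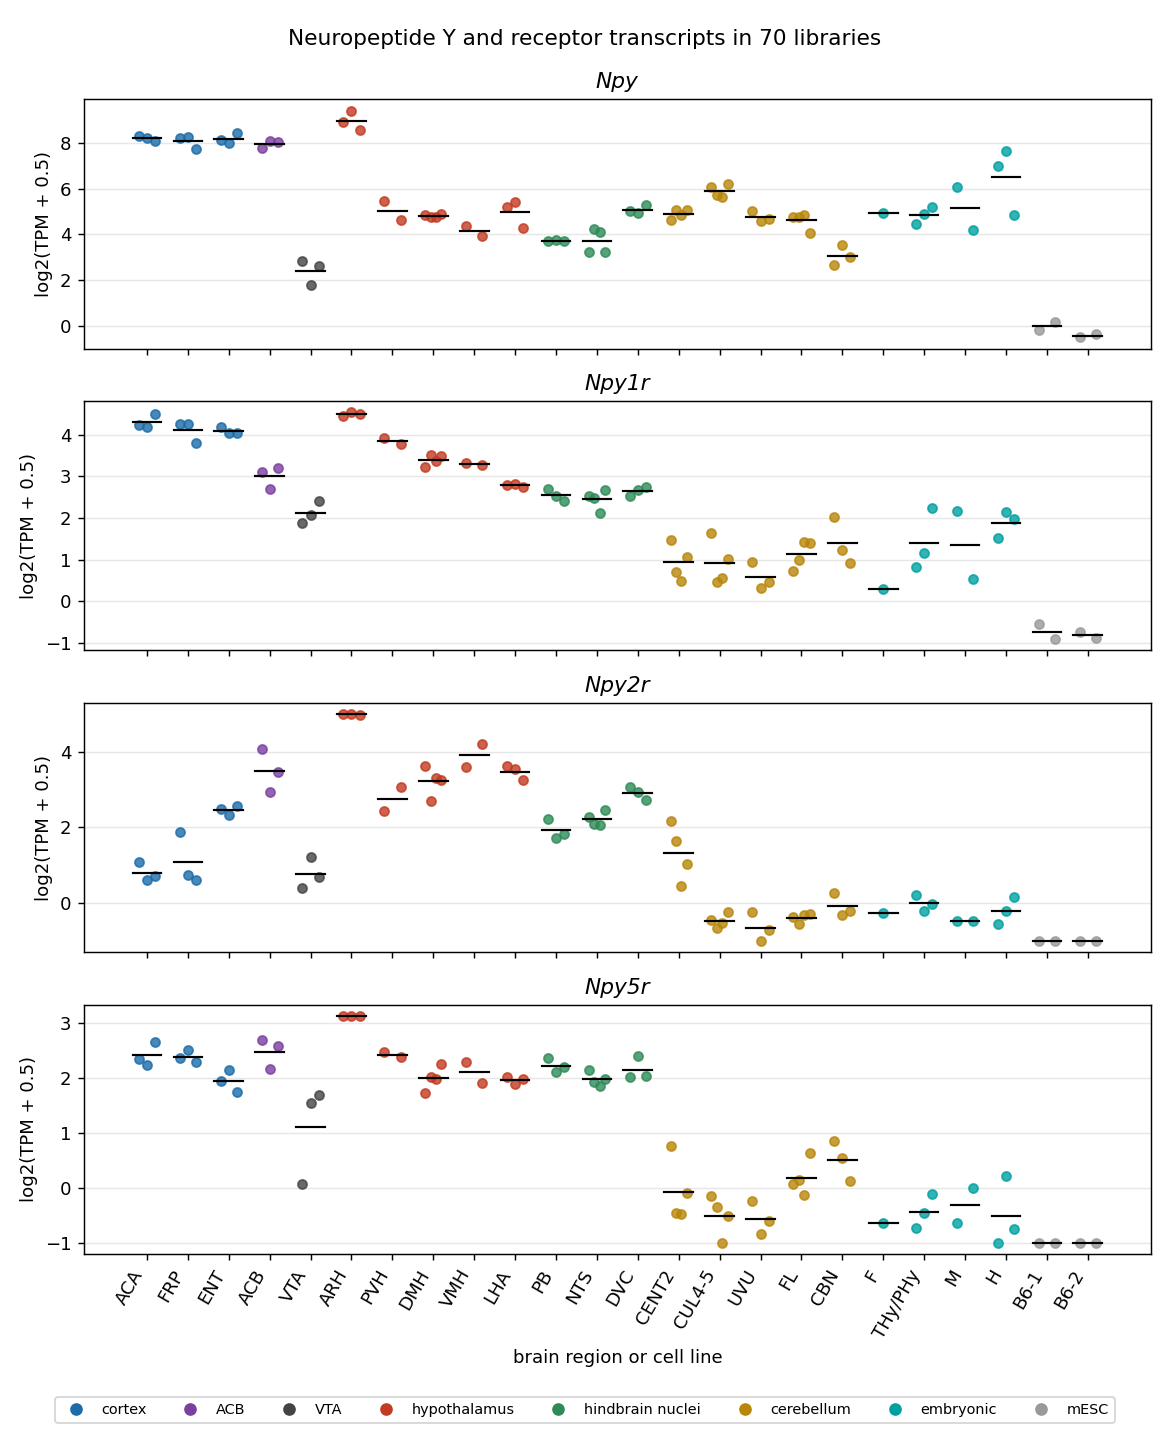
Levels of Npy, Npy1r, Npy2r and Npy5r in each library, by region, as log2(TPM + 0.5). Each point is 1 library and each black line is the mean of the log2 values of its group; the ARH points are the highest for Npy, at 382 to 684 TPM, and for Npy2r, at 31.0 to 31.4 TPM.

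Npy1r, the Y1 receptor, had a broader distribution with 2 high sites, ARH and the cortex. It was 21.5, 22.7 and 22.1 TPM in ARH, 18.5, 17.7 and 22.0 TPM in ACA, 18.7, 18.6 and 13.4 TPM in FRP and 17.8, 16.1 and 16.1 TPM in ENT. ARH and ACA overlapped, as did each cortical area with the next, whereas all ARH libraries lay above all of FRP and ENT. PVH followed at 14.6 and 13.3 TPM, below all ENT libraries and above all of DMH, which had 8.91, 10.9, 9.89 and 10.7 TPM. VMH had 9.51 and 9.16 TPM, ACB 8.13, 6.01 and 8.70 TPM and LHA 6.42, 6.59 and 6.22 TPM. The hindbrain libraries lay between 3.85 and 6.20 TPM, the VTA at 3.19, 3.70 and 4.85 TPM, and the 18 cerebellar libraries between 0.754 and 3.58 TPM with a median of 1.46 TPM.

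Npy2r, the Y2 receptor, was more restricted. It was 31.4, 31.4 and 31.0 TPM in ARH, which made it the most abundant receptor there, and the highest library elsewhere had 17.9 TPM. The next groups overlapped each other: VMH had 11.7 and 17.9 TPM, ACB 16.4, 7.15 and 10.5 TPM, LHA 11.8, 11.2 and 9.005 TPM and DMH 11.7, 6.04, 9.32 and 9.05 TPM. PVH, with 4.89 and 7.89 TPM, had the lowest mean of the hypothalamic groups. The cortex was split, since ENT had 5.06, 4.48 and 5.42 TPM whereas ACA had 1.61, 1.02 and 1.15 TPM and FRP 3.14, 1.18 and 1.02 TPM. The hindbrain libraries lay between 2.79 and 7.90 TPM and those of VTA at 0.825, 1.84 and 1.11 TPM. In the cerebellum the median was 0.312 TPM, and CENT2 stood apart from the other lobules with 4.00, 2.60, 0.876 and 1.54 TPM, where no library of the other 4 cerebellar regions exceeded 0.711 TPM. The highest of these, CENT2 replicate 1, also held 7.34 TPM of Dbh, a marker of noradrenergic hindbrain neurons that was at or below 0.0936 TPM in the other CENT2 libraries; its part in the Npy2r level was not tested.

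Npy5r, the Y5 receptor, was the least abundant receptor in most adult regions and varied little outside the cerebellum, ARH and VTA. It was 8.30, 8.23 and 8.24 TPM in ARH, above every other library. ACB had 5.97, 3.99 and 5.51 TPM, PVH 5.04 and 4.74 TPM, ACA 4.61, 4.25 and 5.81 TPM and FRP 4.65, 5.20 and 4.43 TPM. From ACB at a mean of 5.15 TPM down to ENT at a mean of 3.40 TPM, each of 11 groups overlapped the next in its libraries. Groups further apart in that order could be separate, as all libraries of ACB, PVH, ACA and FRP lay above all of ENT. VTA had 0.554, 2.41 and 2.73 TPM, the lowest being the library with the high mitochondrial share. The hypothalamic nuclei other than ARH lay between 2.83 and 5.04 TPM, the hindbrain nuclei between 3.15 and 4.77 TPM and ENT at 3.38, 3.95 and 2.86 TPM, a narrow band. The cerebellum lay between 0 and 1.31 TPM.

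Set against the other adult hypothalamic nuclei, ARH had higher levels of the ligand and of all of its 3 receptors. A gene was called higher or lower where the adjusted p was under 0.05 and the log2 fold change was over 1 in size, and 4.69% of the 19998 genes tested were called higher in ARH, beside 4 of the 4 members. The log2 fold change was 4.20 ± 0.28 (SE, adjusted p = 8.84e-17) for Npy, 1.14 ± 0.25 (adjusted p = 3.57e-04) for Npy1r, 1.64 ± 0.26 (adjusted p = 3.59e-06) for Npy2r and 1.11 ± 0.32 (adjusted p = 0.00677) for Npy5r. No library of the 11 from PVH, DMH, VMH and LHA overlapped those of ARH for any member. How large a share of all genes separates in this way was not counted. Each call was kept when any 1 library was left out. That of Npy5r was lost on log2(TPM + 0.1) values, with an adjusted p of 0.0778.

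With earlier results of these data known, 9 genes were listed as partners of the arcuate Npy neurons. Of these, 6 were called higher in ARH and none lower, with a median log2 fold change of 1.65 beside 0.02 over all genes. Agrp, the inverse agonist of melanocortin receptors that these neurons release, had 107, 200.04 and 87.7 TPM in the ARH libraries, the same order as Npy, and a log2 fold change of 6.58 ± 0.35. Bsx, a transcription factor of these neurons (3.34 ± 0.40), the ghrelin receptor gene Ghsr (2.32 ± 0.34) and the leptin receptor gene Lepr (1.65 ± 0.35) were also called, together with Corin and Acvr1c. Of 5 genes for peptide processing, Dpp4, an enzyme that trims neuropeptide Y, was called higher, and of 8 genes for inhibitory receptor signalling none was called. Of 8 genes that mark or accompany Npy interneurons, none was called higher, and Lhx6 and Ndnf were called lower. The fourth receptor of the family, Npy4r, was called higher but reached a group mean of only 0.701 TPM in ARH, its highest, and Pyy, Ppy and Npy6r were too low to be tested. The ARH libraries also held pituitary markers, a summed level of Cga, Prl, Gh and Fshb of 68.9 to 105 TPM beside at most 37.7 TPM in any other adult library, and markers of neighbouring nuclei, with Pmch at 661, 830 and 740.2 TPM, Oxt at 341, 615 and 113 TPM and Nr5a1 at 19.7, 18.3 and 16.8 TPM. The part of such tissue in the results was not tested.

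The other hypothalamic nuclei were then each compared with the remaining 4. PVH had less Npy2r, with a log2 fold change of -1.26 ± 0.38 (adjusted p = 0.0316), where 0.615% of genes were called lower. That call was lost without either PVH library (adjusted p = 0.488 without replicate 1 and 0.170 without replicate 2), and without VMH replicate 2 (0.0585). In VMH, where 0.68% of genes were called lower, Npy was lower by a log2 fold change of -1.88 ± 0.45 (adjusted p = 0.00879), and this call too was lost without VMH replicate 1 (0.0750) or replicate 2 (0.339). No member passed in DMH, where 0.445% of all genes were called higher and 0.15% lower, or in LHA, where 2.32% were called higher and 2.73% lower. The nearest were Npy in DMH (-1.05 ± 0.32, adjusted p = 0.106) and Npy1r in LHA (-0.93 ± 0.28, adjusted p = 0.0148), the latter under the fold limit. The ARH libraries form part of the reference in each of these comparisons.

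**Figure D2:**
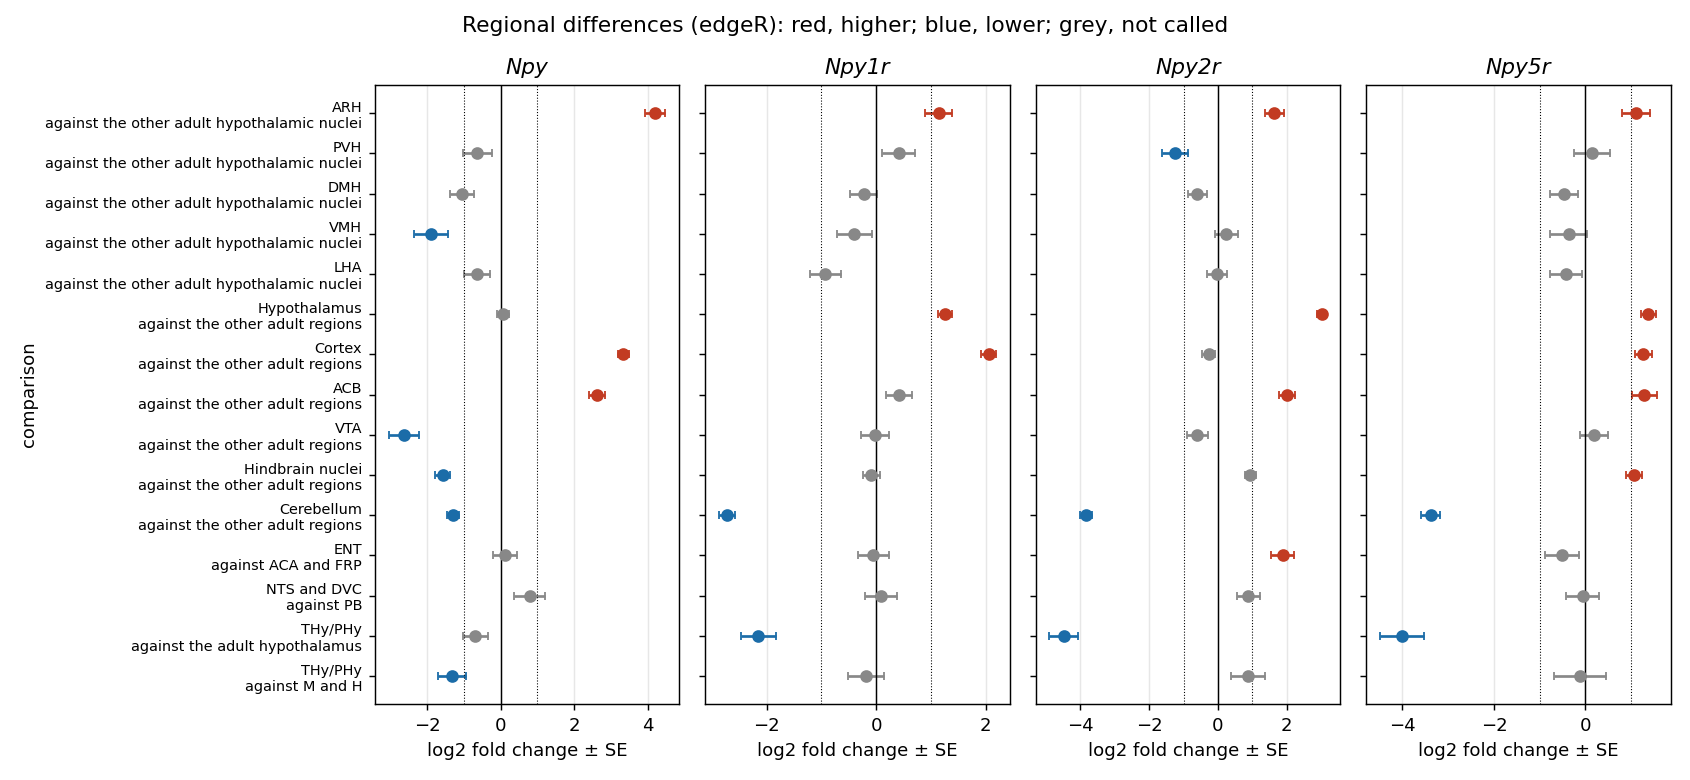
Log2 fold change (x axis) of each member in the 15 comparisons, with bars of 1 SE. Red points were called higher, blue lower and grey neither, and dotted lines mark the fold limit of 1 in either direction; the receptors lie furthest to the left in the cerebellum and in THy/PHy against the adult hypothalamus, at -2.15 to -4.48.

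Each larger brain division was next compared with the other adult regions, every region weighted equally, so these comparisons share libraries and are not independent. Except in the comparison of the cerebellum itself, the reference held the 5 cerebellar regions. Their median was 1.46 TPM for Npy1r, 0.312 TPM for Npy2r and 0.411 TPM for Npy5r. No comparison of a division was made without them. In the hypothalamus all 3 receptors were higher than in this reference while the ligand was not, and 6.11% of genes were called higher. Outside ARH the hypothalamic libraries had 6.2 to 14.6 TPM of Npy1r, beside 13.4 to 22.0 TPM in the cortex. They had 2.83 to 5.04 TPM of Npy5r, beside 2.86 to 5.81 TPM in the cortex. Npy2r had a log2 fold change of 3.01 ± 0.14 (adjusted p = 2.35e-24), Npy5r of 1.38 ± 0.16 (adjusted p = 2.93e-10) and Npy1r of 1.26 ± 0.12 (adjusted p = 1.41e-12), against 0.07 ± 0.16 (adjusted p = 0.818) for Npy. With the libraries of each side pooled into 1 group the Npy1r and Npy5r calls were lost, with log2 fold changes of 0.76 and 0.79. Of the arcuate partners 4 of 9 were higher (Agrp, Bsx, Gad2 and Ghsr), and of the processing genes Pam, the peptide-amidating enzyme, was higher (1.31 ± 0.06).

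In the cortex the ligand and the Y1 receptor were both higher, and the Y2 receptor was not called. The log2 fold change against the other adult regions was 3.33 ± 0.15 (adjusted p = 2.09e-26) for Npy and 2.05 ± 0.13 (adjusted p = 1.25e-19) for Npy1r, and Npy5r was also called (1.27 ± 0.18, adjusted p = 2.47e-08), in a comparison where 8.17% of genes were called higher. The cortical range of Npy5r was 2.86 to 5.81 TPM. The hindbrain nuclei had 3.15 to 4.77 TPM of it and the hypothalamus outside ARH 2.83 to 5.04 TPM. Npy2r was at -0.27 ± 0.19 (adjusted p = 0.237). The Npy5r change fell under the fold limit on log2(TPM + 0.5) values (0.85), and its call was lost with pooled sides (0.70). Of 8 genes that mark or accompany Npy interneurons, Sst, a peptide made by many of the same cells (1.88 ± 0.18), Lhx6, a transcription factor of interneurons from the medial ganglionic eminence (4.18 ± 0.14), and Lamp5 (3.10 ± 0.21) were higher and Chodl was lower. The G protein-gated potassium channel genes Kcnj3 (1.15 ± 0.08), Kcnj6 (1.23 ± 0.10) and Kcnj9 (1.004 ± 0.06) were higher as well, 3 of 8 signalling genes.

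Within the cortex ENT differed from ACA and FRP in Npy2r, which was higher by a log2 fold change of 1.88 ± 0.33 (adjusted p = 2.71e-05), where 1.96% of genes were called higher. All 3 ENT libraries lay above all 6 others, and the value stayed between 1.70 and 2.29 when any 1 library was left out. Npy (0.13 ± 0.32), Npy1r (-0.06 ± 0.28) and Npy5r (-0.51 ± 0.37) were not called.

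ACB combined a ligand level in the range of the cortex with a Y2 receptor level in the range of the hypothalamus. Npy was higher than in the other adult regions by a log2 fold change of 2.63 ± 0.22 (adjusted p = 4.91e-15), Npy2r by 2.00 ± 0.23 (adjusted p = 1.78e-10) and Npy5r by 1.29 ± 0.27 (adjusted p = 1.18e-04), where 7.29% of genes were called higher, and Npy1r was at 0.42 ± 0.24 (adjusted p = 0.156). ACB held 3.99 to 5.97 TPM of Npy5r, beside 2.86 to 5.81 TPM in the cortex. All 3 calls were lost with pooled sides, where the other adult regions form 1 group with its own spread. Of the interneuron partners 4 of 8 were higher and none lower, with Lhx6 at 4.24 ± 0.18 and Sst at 1.42 ± 0.28, whereas Kcnj3 (-1.40 ± 0.16) and Kcnj6 (-1.13 ± 0.21) were lower, and Kcnj9 was lower just past the fold limit. The cortical marker Slc17a7 was 23.9, 263 and 297 TPM in the ACB libraries. Npy was lowest and Npy2r highest in the library with the least Slc17a7, and the part of cortical tissue in these levels was not tested.

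VTA had the lowest mean Npy of the adult regions, although its libraries overlapped those of CBN, with a log2 fold change of -2.63 ± 0.41 (adjusted p = 7.10e-07), where 3.65% of genes were called lower, and a value of -3.73 that was no longer called with pooled sides (adjusted p = 0.119). No receptor was called. Npy2r was at -0.60 ± 0.31, and it was called lower on TPM-based values, at -1.16. Of all genes called in VTA, 65.4% were higher on counts against 13.3% and 15.5% on TPM values, so that directions there depend on the scale.

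The hindbrain nuclei had little ligand and intermediate receptor levels. Npy was lower by a log2 fold change of -1.57 ± 0.21 (adjusted p = 5.35e-09), where 2.66% of genes were called lower, and Npy5r was higher by 1.07 ± 0.18 (adjusted p = 1.21e-06), where 5.18% were called higher. Npy5r in the hindbrain libraries lay at 3.15 to 4.77 TPM, within the cortical range of 2.86 to 5.81 TPM. In the cerebellum, part of the reference, it lay at 0 to 1.31 TPM. Npy5r missed the limits on TPM values (0.68 and 0.96) and with pooled sides (0.47). Npy2r, at 0.94 ± 0.16 (adjusted p = 2.56e-06), was just under the fold limit, and Npy1r was at -0.09 ± 0.15. For Npy2r the hindbrain libraries had 2.79 to 7.90 TPM, the hypothalamus outside ARH 4.89 to 17.9 TPM and the cerebellum 0 to 4.00 TPM. Between NTS with DVC and PB no member was called, where 0.835% of genes were called higher and 1.46% lower; Npy was at 0.79 ± 0.42 (adjusted p = 0.308) and Npy2r at 0.87 ± 0.33 (adjusted p = 0.110).

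The cerebellum was lower in all 4 members, where 8.52% of genes were called lower. The log2 fold change was -1.28 ± 0.16 (adjusted p = 7.23e-10) for Npy, -2.72 ± 0.15 (adjusted p = 5.25e-23) for Npy1r, -3.83 ± 0.19 (adjusted p = 6.23e-24) for Npy2r and -3.39 ± 0.20 (adjusted p = 1.28e-20) for Npy5r. These calls held under every alternative tried and without any 1 cerebellar library. Of the reference libraries, only VTA replicate 1 was left out. Interneuron partners were lower in 5 of 8 cases, Sst by -3.32 ± 0.20 and Lhx6 by -3.72 ± 0.21, and Reln, which cerebellar granule cells make, was higher. Processing genes were lower in 3 of 5 cases, namely Pam (-1.86 ± 0.07), Pcsk1 (-1.20 ± 0.07) and Pcsk2 (-1.02 ± 0.05).

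At E14.5 the ligand was already present in the brain while receptor levels were low. In THy/PHy, the embryonic hypothalamus, Npy was 21.2, 29.1 and 36.6 TPM, within the range of the adult nuclei other than ARH. Npy1r was 1.27, 1.72 and 4.22 TPM, Npy2r 0.656, 0.368 and 0.475 TPM, and Npy5r no more than 0.664 TPM in any embryonic library. Against the 5 adult nuclei Npy2r was lower by a log2 fold change of -4.48 ± 0.42 (adjusted p = 1.35e-13), Npy5r by -4.01 ± 0.49 (adjusted p = 3.84e-10) and Npy1r by -2.15 ± 0.31 (adjusted p = 3.25e-08), whereas Npy was not called (-0.68 ± 0.34, adjusted p = 0.0709). In this comparison 20% of genes were called lower. Peptide processing genes were lower in 4 of 5 cases, with Pcsk1 at -3.53 ± 0.21 and Cpe at -2.06 ± 0.08, and the arcuate partners in 6 of 9, while Bsx was higher (2.39 ± 0.38). The labels do not give the collection batch of each library, so stage and batch could not be told apart here.

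Among the embryonic regions the hindbrain held the most Npy, at 125, 200.7 and 28.5 TPM, and the midbrain had 67.4 and 17.95 TPM. The spread within each region was thus wide. The mitochondrial share of TPM in the hindbrain libraries was 22.6%, 11.8% and 6.10%, in the same order of libraries, and the first had the fewest counts of all libraries, 9074581. The third hindbrain library, low in Npy, also differed in a regional marker, with Hoxb5 at 0.471 TPM beside 120 and 147 TPM in the others. The second midbrain library, low in Npy, held 1614 TPM of the choroid plexus marker Ttr beside 18.8 TPM in the first; the part of dissection or RNA quality in these levels was not tested. Npy was lower in THy/PHy than in M and H (-1.32 ± 0.38, adjusted p = 0.0170), where 1.74% of genes were called lower. This call was lost without M replicate 1 (-0.72, adjusted p = 0.375), THy/PHy replicate 1 (adjusted p = 0.125), THy/PHy replicate 2 (0.0653) or H replicate 2 (0.0666), and its fold fell under the limit on TPM values (-0.97). Npy1r was 2.35, 3.94 and 3.44 TPM in H and 4.00 and 0.938 TPM in M, and Npy2r stayed at or below 0.614 TPM in both, and no receptor was called. The single forebrain library had 30.2 TPM of Npy and 0.731 TPM of Npy1r.

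The stem cells held almost no Npy, at 0.388 and 0.603 TPM in B6-1 and at 0.199 and 0.279 TPM in B6-2. Npy1r lay between 0.0323 and 0.182 TPM. Npy2r and Npy5r were at 0 counts in all 4 libraries, where 3 counts, the limit that a count of 0 allows, correspond to between 0.162 and 0.231 CPM, that is, counts scaled to the library total.

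The balance between the Y2 and Y1 receptors was described within each library as log2((Npy2r + 0.5)/(Npy1r + 0.5)) on TPM, so that both receptors come from the same library. Where both are low, as in the cerebellum, the value depends on the added 0.5. It separated the cortex from the hypothalamus. The value was -2.73 ± 0.90 (SD, n = 9 libraries) in the cortex and 0.13 ± 0.70 (SD, n = 14) in the hypothalamus, a difference of -2.86 (2-sided exact permutation test, p = 1.22e-06, the smallest this design allows; adjusted over 3 comparisons, 3.67e-06). The hindbrain nuclei, at -0.20 ± 0.40 (SD, n = 10), differed from the cortex by 2.53 (exact permutation p = 1.08e-05, again the smallest possible; adjusted 1.62e-05), and from the hypothalamus by -0.33 (permutation test, p = 0.197). With region means in place of libraries as units, the adjusted p was 0.0536 for the cortex against the hypothalamus and 0.150 for the hindbrain nuclei against the cortex, since only 3 cortical and 3 hindbrain regions remain.

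The cortical areas were not alike in this measure. It was -3.51 ± 0.31 (SD, n = 3) in ACA, -3.03 ± 0.57 (SD, n = 3) in FRP and -1.65 ± 0.14 (SD, n = 3) in ENT, and the highest ENT library, at -1.49, lay next to the lowest hypothalamic one, PVH replicate 1 at -1.48. As shares of the summed TPM of the 3 receptors, Npy1r made up 75.9% in ACA, 72.0% in FRP and 66.5% in ENT. Npy2r made up 50.7% in ARH, 52.3% in VMH, 51.9% in LHA, 46.0% in ACB, 41.9% in DVC and 25.2% in PVH, and 51.6% in CENT2, where the summed level was 4.25 TPM. Npy5r had its largest share in PB, at 32.7%. The summed level was 61.6 TPM ± 0.63 (SD, n = 3) in ARH, whereas in ACA, FRP, ENT, ACB, PVH, DMH, VMH and LHA it averaged between 20.5 and 28.0 TPM. The balance of the Y5 to the Y1 receptor, computed in the same way, differed by -0.67 between cortex and hypothalamus (adjusted p = 7.34e-06) and by 0.81 between hindbrain nuclei and hypothalamus (adjusted p = 1.08e-05), both by permutation tests over libraries. Region means were not tried as units for this balance. Before adjustment, the p of the latter difference was the smallest that 100000 resamples can give.

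**Figure D3:**
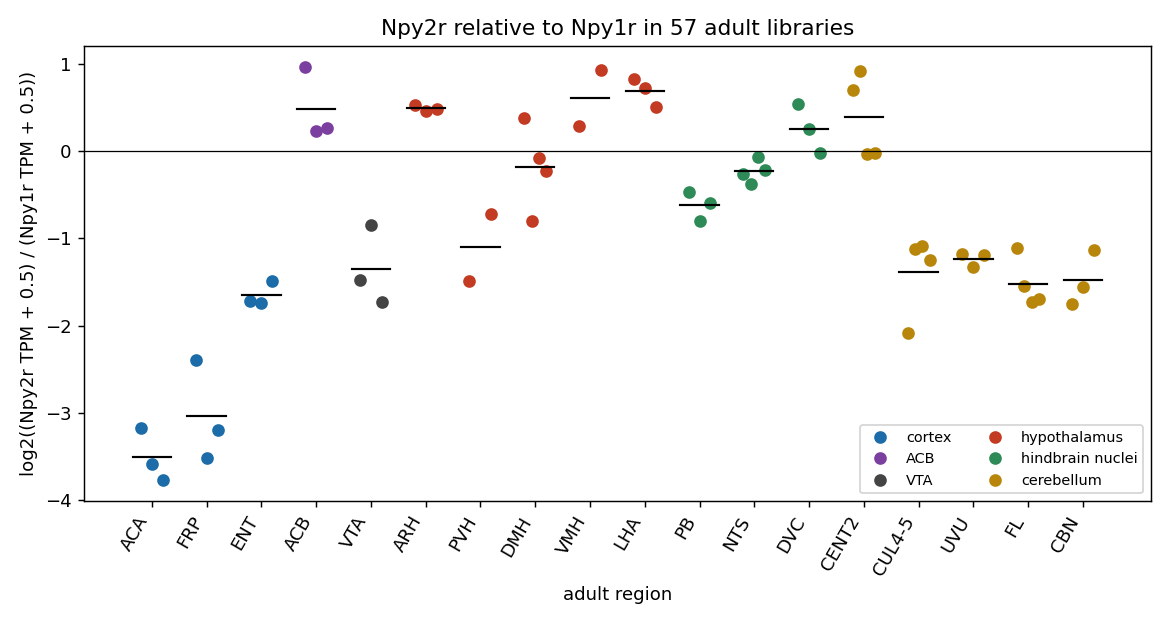
Balance of the Y2 to the Y1 receptor, log2((Npy2r + 0.5)/(Npy1r + 0.5)) on TPM, in each of the 57 adult libraries, by region. Values above 0 mean more Npy2r than Npy1r; ACA and FRP lie lowest, with means of -3.51 and -3.03, and the means of ARH, VMH, LHA, ACB, CENT2 and DVC lie above 0.

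The profiles of the members over the 18 adult regions were compared through the mean log2(TPM + 0.5) of each region; the points share libraries and scaling, and no p is given. The neighbouring receptor genes Npy1r and Npy5r had the highest correlation of any pair of members, with r = 0.918 over 18 regions. Ranked by r among 17954 genes, Npy5r stood at rank 80 for Npy1r, and Npy1r at rank 66 for Npy5r. Over the 13 regions outside the cerebellum this pair had r = 0.676. There Npy and Npy1r had 0.824, Npy and Npy5r 0.707 and Npy1r and Npy2r 0.160. The genes with the most similar profiles to Npy were 2700081O15Rik (r = 0.920), Nfyb (0.897), Fem1a, Tspan13 and Rpl29. For Npy1r they were Gm16485, Zfp575, Pld3, Ldb2 and Gnaz, all with r of 0.963 or 0.964, and for Npy2r they were Rpl17 (0.938), Kcna5 (0.937), Rps26, Hap1 and Rps28. For Npy5r they were Vgf, a neuropeptide precursor (0.966), Hsph1 (0.960), Pnma2, Tmem179 and D130043K22Rik. Few of these names were kept when the embryonic regions were added or the logarithm was dropped.

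**Figure D4:**
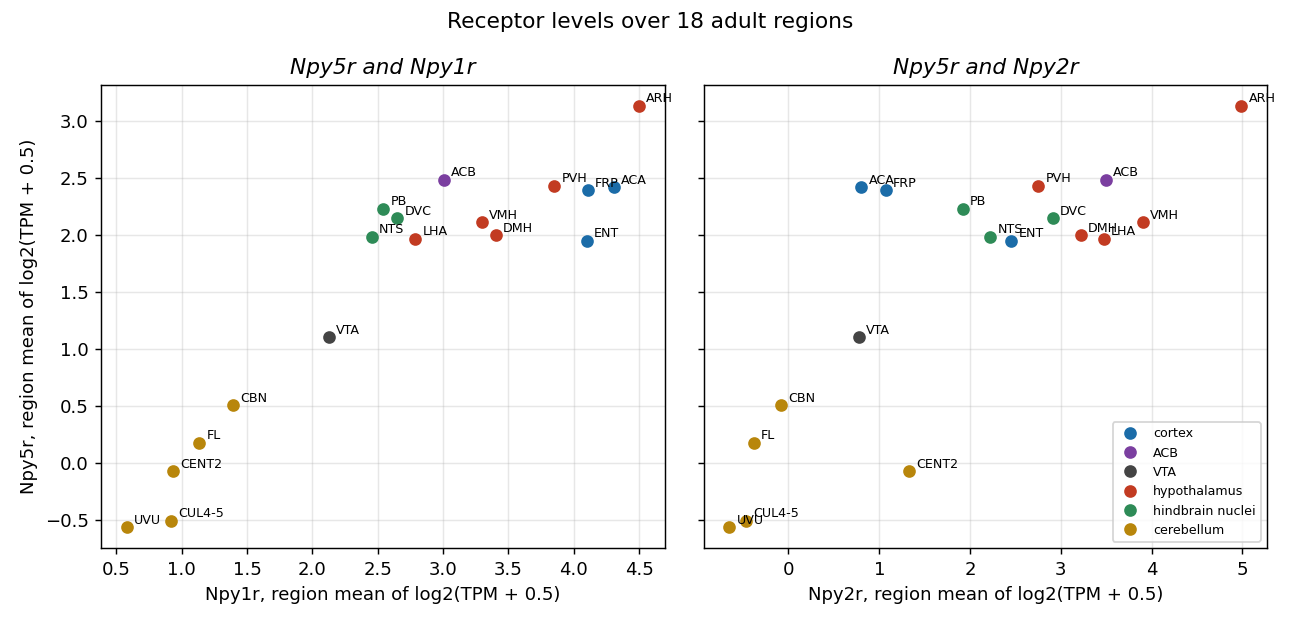
Region means of log2(TPM + 0.5) of Npy5r against those of Npy1r and of Npy2r, 1 point for each of the 18 adult regions. ARH lies at the upper right in both panels and the 5 cerebellar regions have the lowest Npy5r; outside the cerebellum r was 0.676 with Npy1r and 0.503 with Npy2r.

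At the level of transcripts, Npy had 1 annotated form, Npy1r 2, Npy2r 4 and Npy5r 3. For Npy2r the sum over transcripts was steady in ARH while its division was not. The form Npy2r-201 had 4.48, 19.9 and 23.1 TPM and Npy2r-202 had 13.1, 3.13 and 0.801 TPM in the 3 libraries, although the gene stood at 31.4, 31.4 and 31.0 TPM. Transcript shares of Npy2r are therefore not interpreted, and all values above are sums per gene.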

How the data were processed

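RNA from 57 adult, 9 embryonic and 4 stem cell libraries was sequenced by the authors as short single reads, converted with CASAVA 1.8.2 and quantified with Kallisto against Ensembl cDNA of GRCm38. The deposited values were estimated counts per transcript and TPM per transcript and per gene, the latter summed by the authors. The kit marks strand, but the strand setting of the quantification is not given in the sources used here. Short reads shared by several transcripts are divided by estimation, which makes gene sums steadier than transcript shares.

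Groups were taken from the labels, and the collection batch, which the labels do not give, was not used. Transcripts were assigned to genes with GENCODE M21 on GRCm38 (107987 of 109282 matched, 98.8%; unmatched transcripts held 0.418% to 0.767% of counts), and the deposited estimated counts of a gene's transcripts were added and rounded to whole numbers. In edgeR 4.0.16 (R 4.3.3; TMM scaling, filterByExpr, quasi-likelihood test) 1 model with 1 term per group was fitted to all 70 libraries, and contrasts were means of region coefficients, each region weighted equally. P-values were adjusted by the Benjamini-Hochberg method over all 19998 genes tested and calls needed an adjusted value under 0.05 together with a log2 change larger than 1 in size. Levels are TPM as deposited. Receptor balances used log2 with a pseudocount of 0.5 on TPM and permutation tests over libraries, exact or with 100000 resamples. Alternatives were DESeq2 1.42.0 with its own dispersion and test, RLE size factors, no low-count filter, limma 3.58.1 on log2(TPM + 0.5) and log2(TPM + 0.1) for genes with at least 1 TPM in at least 2 libraries, other sets of libraries, a replicate block, and leaving out 1 library at a time with the trended dispersions of the full model. Libraries left out were those of the groups compared and VTA replicate 1. Where the reference was the other adult regions, its libraries, VTA replicate 1 apart, were not left out. For the ARH comparison, counts were simulated for the hypothalamic libraries alone (16209 genes, 200 changed). The adjusted p was passed by 85 of 99 genes changed by 1 log2 unit, 99 of 100 changed by 2 and 4 of 16010 unchanged genes. The fold limit of the calls was not applied there, and the median size estimated for genes changed by 1 was 0.984. Simulated counts were independent, used the trended dispersions of the data and gave unchanged genes equal means in all nuclei. Shared mice, gene-specific spread and differences among the other nuclei were absent, so only the computation was checked. Python 3.11.15, NumPy 2.4.6, pandas 2.3.3, SciPy 1.17.1 and matplotlib 3.10.9 were used. Named genes were the 4 members, the members of lists of family, processing, arcuate, interneuron and signalling genes, region markers that check a label or move with a result, and the 5 genes most similar in profile to each member by Pearson's r. The members and lists were chosen with earlier results of these data known. Promoter bases and the genes' starts for them were RefSeq's.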

Additional observations from a re-analysis of the deposited data

Results flagged for a closer look

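The balance of the Y2 to the Y1 receptor, log2((Npy2r + 0.5)/(Npy1r + 0.5)), was -2.09 in CUL4-5 replicate 1 and lay far from the other 3 CUL4-5 libraries, at -1.12, -1.08 and -1.25. Its gap to the nearest of them was 0.833 of the range of the group, just past Dixon's critical value for 4 libraries. That library had 0.235 TPM of Npy2r, within the range of the other CUL4-5 libraries, and 2.62 TPM of Npy1r, above their highest value of 1.52 TPM. It was the 1 case among 25 sets of values examined in this way, and chance alone marks about 5% of such sets.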

How the results depend on the processing

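Over the 60 values of the 4 members in 15 comparisons, 27 were called in the main analysis. Of these, 24 were called in every fit that left out 1 library and 15 under every alternative. Where the reference was the other adult regions, only libraries of the tested division and VTA replicate 1 were left out. DESeq2 and RLE size factors kept the direction and the call of 60 of 60. With the sides pooled into 1 group each, calls were lost for Npy1r (0.76) and Npy5r (0.79) in the hypothalamus, Npy5r in the cortex (0.70), Npy (1.39), Npy2r (0.91) and Npy5r (0.77) in ACB, Npy in VTA (-3.73) and VMH (-3.12), Npy2r in PVH (-1.37), Npy5r in the hindbrain nuclei (0.47) and Npy in THy/PHy against M and H (-1.80), Npy1r in LHA was gained (-1.001), and Npy1r in ACB (-0.063), Npy2r in VMH (-0.070), Npy5r in VTA (-0.35) and Npy2r in the hindbrain nuclei (-0.24), none of them called, changed sign. On log2(TPM + 0.5) and log2(TPM + 0.1) values respectively, Npy5r in the hindbrain nuclei (0.68 and 0.96) and Npy in THy/PHy against M and H (-0.97 and -0.98) were lost, Npy2r in VTA was gained (-1.16 and -1.18) and Npy5r in VTA changed sign (-0.47 and -0.47). On the former, Npy5r in the cortex (0.85) and in ACB (0.99) was lost. On the latter, Npy5r in ARH (1.08) and Npy2r in PVH (-1.19) were lost, Npy1r in LHA was gained (-1.01) and Npy5r in THy/PHy against M and H changed sign (0.091). With only the groups compared, Npy in DMH was gained (-1.04) and Npy in THy/PHy against M and H lost (-1.34), and for Npy5r no value could be had there, nor with pooled sides. Npy2r in LHA, at -0.02, changed sign without the filter (0.0075), without mESC (0.0033), with only the groups compared (0.0034) and with the replicate block (0.0054). The cause of these shifts was not tested. Leaving out 1 library gave ranges of -1.43 to -1.11 for Npy2r in PVH, -2.13 to -1.67 for Npy and -0.036 to 0.47 for Npy2r in VMH, -0.074 to 0.087 for Npy2r in LHA, -0.033 to 0.14 for Npy in the hypothalamus, -0.22 to 0.20 for Npy1r and -0.11 to 0.47 for Npy5r in VTA, -0.093 to 0.25 for Npy and -0.14 to 0.0073 for Npy1r in ENT, -0.14 to 0.036 for Npy5r in NTS and DVC against PB, and -1.65 to -0.72 for Npy, -0.94 to 0.47 for Npy1r and -0.54 to 0.90 for Npy5r in THy/PHy against M and H. The receptor balance of hindbrain nuclei against hypothalamus ranged from -0.45 to -0.26, with an adjusted p of 0.0420 without PVH replicate 1, and with region means the other differences were -2.83 and 2.53. Of the 5 genes most similar to each member, 0 for Npy, 2 for Npy1r, 1 for Npy2r and 2 for Npy5r were kept with the embryonic regions, and 1, 2, 0 and 1 without the logarithm. Without mitochondrial transcripts 21 of 96 group levels did not stay within 1 SD. This count includes the levels of the forebrain, which has 1 library and no SD.

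The median correlation of same-numbered libraries lay between -0.06 and 0.03 over the comparisons, and the replicate block changed no call of a member. The highest correlation of a same-numbered pair was 0.343, in the cortex and VTA comparisons. A median over all pairs cannot show whether some libraries were paired. Shared mice and collection batches were not tested. Counts of called genes moved by over 1.5 times in pooled fits (1081 against 2554 in ACB, 6 against 119 in DMH, 46 against 407 in PVH, 117 against 633 in THy/PHy against M and H, 0 against 294 in VMH and 450 against 2107 in VTA), with only the groups compared (242 in DMH, 168 in THy/PHy against M and H and 493 in VMH), on TPM values (886 against 1567 in the hindbrain nuclei, 1062 against 1768 in the hypothalamus, 185 in VMH and 3163 in VTA), and without PVH replicate 1 (211) or VMH replicate 2 (96). The share of higher calls moved from 53.7% to 42.3% (DESeq2) and 31.9% (TPM) in VMH, from 74.8% to 62.6% and 57.1% in DMH, from 53.5% to 43.3% and 42.0% in ENT, from 66.0% to 55.4% in the hindbrain nuclei and from 46.0% to 32.6% and 34.2% in LHA on TPM values. Npy5r had 0 to 176 counts per library.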
